A study of Mus musculus with 8 samples.

Results

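The guidance genes encode the Eph receptors, the ephrins, the semaphorins with their plexin and neuropilin receptors, the Slits and Robos, and the netrins and Unc5 receptors. They were chosen by gene symbol alone, among Affymetrix Mouse Genome 430 2.0 probe sets that the platform annotation assigns to 1 gene. The symbols matched 149 probe sets of 68 genes, of 18193 genes with a probe set of their own. A gene took its brightest probe set over the 8 arrays, and the other probe sets were kept to see how far they differ. 1 of the 68, Plxna4os1, is a long non-coding RNA named for its position opposite Plxna4 and encodes no plexin.

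Female C57Bl/6 mice of 2 ages were used, 4 old ones at 14 month and 4 young ones at 2 month, with no treatment named in the labels. RNA came from the distal trachea with the carina, and each mouse has its own array. The old mice carry the numbers 1, 2, 5 and 6, and the young mice the numbers 3, 4, 7 and 8. The arrays were made from whole tissue, so fewer cells of a type and less RNA per cell cannot be told apart. The values are signals in arbitrary units on a linear scale, and a signal of one gene is not set against that of another, since probe sets differ in how brightly they hybridise.

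Guidance proteins are cues and receptors that steer growing axons and migrating cells, most of them by repulsion. Eph receptors are tyrosine kinases that bind ephrins on a neighbouring cell, and both sides of the contact can signal. Secreted semaphorins of class 3 mostly act through a complex of a neuropilin and a plexin, most membrane-bound semaphorins bind plexins directly, Slits bind Robos, and netrins bind Unc5 receptors and Dcc. Outside the nervous system these families are known for roles in blood vessels, epithelial boundaries, immune cells and the branching lung.

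The results below turn mostly on Epha7, which alone of the 68 genes passed the test of age, on Epha2 and Sema5a, which had the next smallest p, and on Plxna2, which had no overlap of the ages and a positive difference in each of its 4 probe sets. The 250 bases before the start of each of these genes are shown from RefSeq (GRCm38.p6), to give the DNA beside the array values. They lie on the plus strand at chr4:28812881-28813130 for Epha7 (the first of 2 windows listed for it), chr4:141300971-141301220 for Epha2, chr15:32244563-32244812 for Sema5a and chr1:194619579-194619828 for Plxna2. Capitals mark a GC box (GGGCGG) or a CCAAT box (CCAAT) on either strand; where GC boxes overlap, the capitals run together.
Epha7: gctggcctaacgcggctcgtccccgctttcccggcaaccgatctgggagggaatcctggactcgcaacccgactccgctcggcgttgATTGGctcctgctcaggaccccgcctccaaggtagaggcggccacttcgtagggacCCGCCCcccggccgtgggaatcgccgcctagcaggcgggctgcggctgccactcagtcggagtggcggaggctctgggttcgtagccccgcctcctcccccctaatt
Epha2: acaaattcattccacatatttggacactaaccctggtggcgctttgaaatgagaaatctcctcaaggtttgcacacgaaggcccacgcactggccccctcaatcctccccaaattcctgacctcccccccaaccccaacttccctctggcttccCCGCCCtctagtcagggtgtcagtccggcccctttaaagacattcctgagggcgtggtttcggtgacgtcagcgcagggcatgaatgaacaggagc
Sema5a: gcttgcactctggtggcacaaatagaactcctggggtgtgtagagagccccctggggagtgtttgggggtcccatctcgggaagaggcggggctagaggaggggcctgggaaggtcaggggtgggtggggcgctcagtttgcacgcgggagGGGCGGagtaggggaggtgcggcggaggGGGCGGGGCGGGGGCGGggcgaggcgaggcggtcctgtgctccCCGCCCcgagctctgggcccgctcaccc
Plxna2: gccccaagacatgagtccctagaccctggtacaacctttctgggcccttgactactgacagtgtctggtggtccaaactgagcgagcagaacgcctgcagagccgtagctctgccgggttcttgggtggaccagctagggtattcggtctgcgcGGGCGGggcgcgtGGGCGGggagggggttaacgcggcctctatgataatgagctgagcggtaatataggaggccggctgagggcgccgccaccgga

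The Sema5a window held 5 GC boxes, some of them overlapping, the Plxna2 window 2, and the Epha7 and Epha2 windows 1 each. The Epha7 window also held 1 CCAAT box, and none of the 4 held a TATA box (TATAAA). Of 32851 windows of the same length, 32.7% held a GC box, 33.8% a CCAAT box and 12.4% a TATA box. GC made up 69.2% of the Epha7 window, 55.6% of the Epha2 window, 72.0% of the Sema5a window and 62.8% of the Plxna2 window. These matches describe the letters in the windows and carry no measurement of binding.

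The first question was whether guidance genes as a family differed with age. Of the 68 genes, 0 passed the 0.05 threshold on the higher side in old mice (limma, with Benjamini-Hochberg adjustment over all genes), against a background of 0.368% of all genes, and 1, Epha7, was lower, against 0.181%. At an unadjusted p under 0.05, 5 were higher (background 7.31%) and 7 were lower (background 7.28%). The 4 old mice were all above the 4 young mice for 3 genes (background 5.02%) and below for 5 (background 5.11%). Together, 8 of the 68 genes had no overlap (11.8%), beside 10.1% of all genes. Apart from the single call of Epha7, these shares are near the background and say nothing particular to the family.

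The size of the differences was modest. The median log2 difference, old minus young, was -0.05 over the 68 genes, beside -0.0047 over all genes, and 38 of the 68 were negative (55.9%, beside 51.0%). The log2 difference was under 0.5 in size for 64 of the 68 genes (94.1%), beside 87.2% of all genes. The differences ran between -1.89 for Plxna4os1 and 1.10 for Efna2, and the lowest without Plxna4os1 was -0.95, for Epha7. The median standard error of a difference was 0.139.

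**Figure D1:**
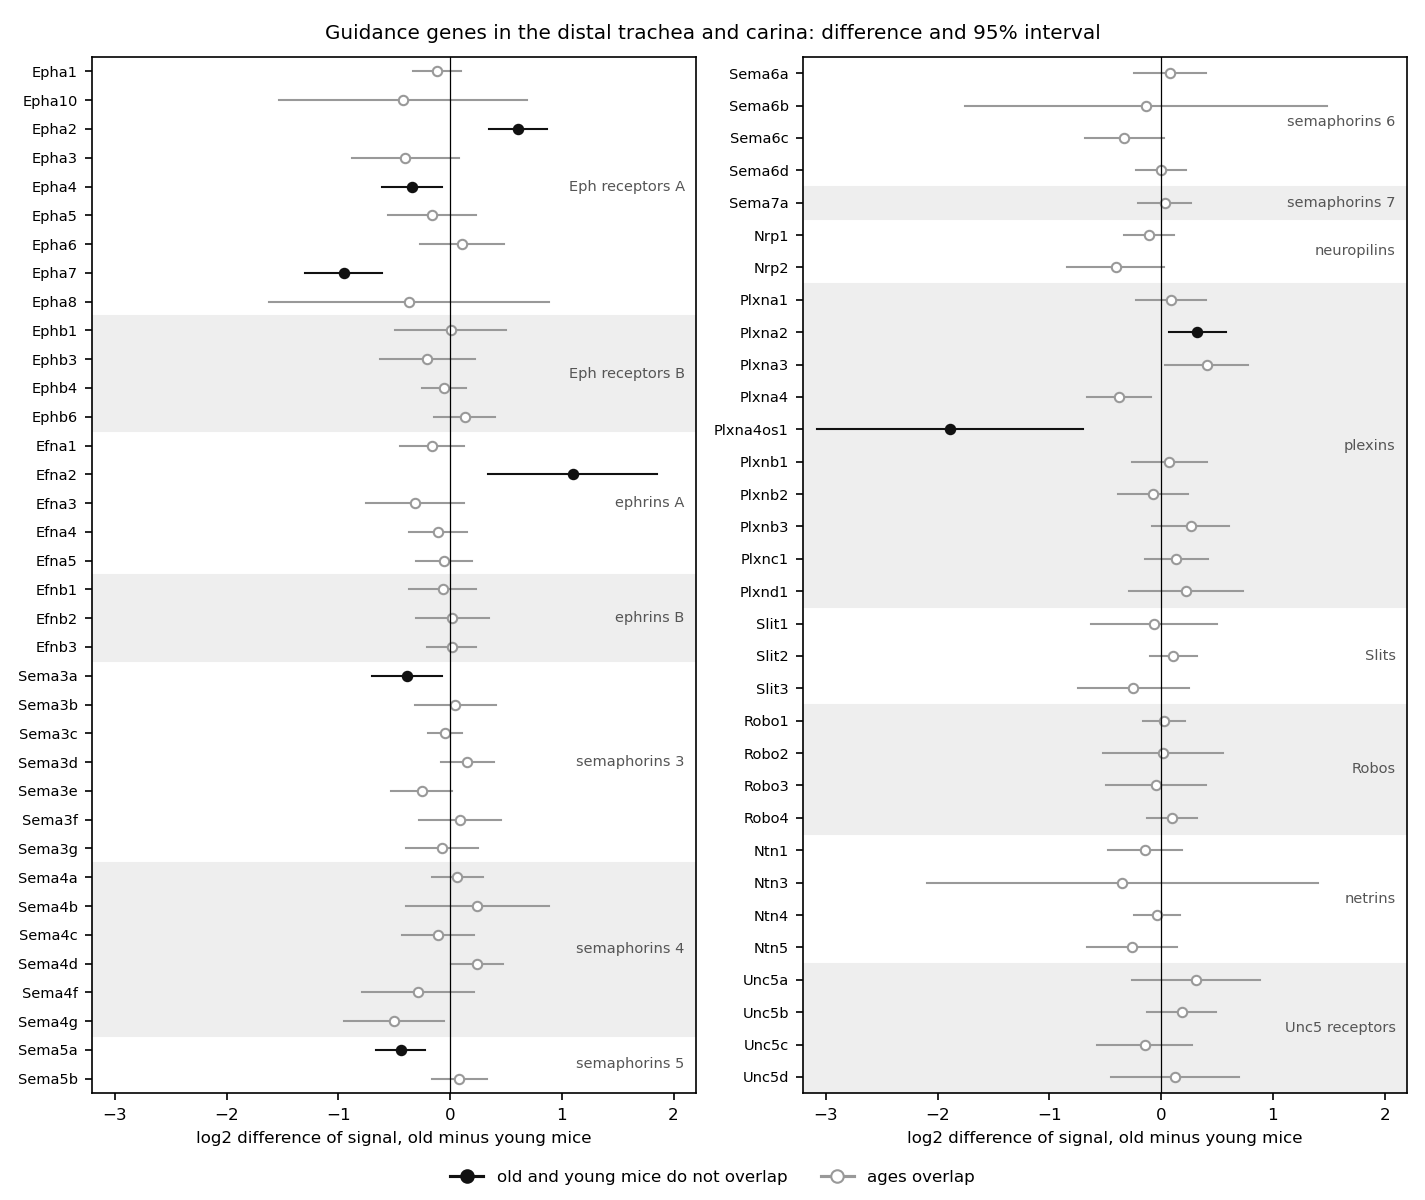
Log2 difference of signal, old minus young mice, of the 68 guidance genes by class (points) with the 95% interval from limma (lines); filled points are genes whose old and young mice do not overlap. Most intervals cross 0, Epha7 lies at -0.95 and Epha2 at 0.61, and the dim Plxna4os1 has a wide interval around -1.89.

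**Figure D2:**
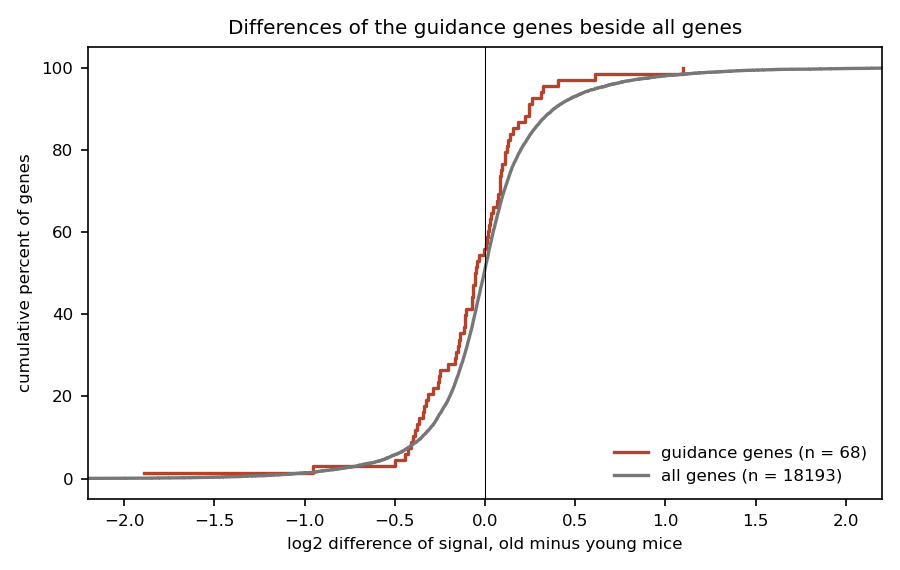
Cumulative percent of genes (vertical axis) against the log2 difference of signal, old minus young mice (horizontal axis, cut at 2.2 on either side), for the 68 guidance genes and for all 18193 genes. The curves run close together, with medians of -0.05 and -0.0047, and the guidance genes have fewer large differences.

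Among the A-type Eph receptors, the group that mostly binds ephrins of the A type, Epha7 fell with age. Epha7 guides retinal axons to their targets and is also known as a receptor that holds back the growth of some lymphomas. Its signal was 279, 222, 297 and 361 in old mice 1, 2, 5 and 6, against 528, 527, 617 and 544 in young mice 3, 4, 7 and 8. The highest old mouse lay well below the lowest young mouse. The mean was 290 ± 57.0 in old mice and 554 ± 42.9 in young mice (SD, n = 4 each), a log2 difference of -0.95 (SE 0.147, 95% interval -1.29 to -0.61) with an adjusted p of 0.0462 by limma over all genes. That p stands close to the threshold: it was 0.0437 without old mouse 6, and between 0.0830 and 0.127, so that the call was lost, without any other single mouse (old 1, 2 or 5, or young 3, 4, 7 or 8), while the log2 difference stayed between -1.07 and -0.83.

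The 4 probe sets of Epha7 did not all show the difference. The probe set above was 1451991_at, and with p-values adjusted over all 45037 probe sets its limma adjusted p was 0.0968 and did not pass, where 0.0178% of probe sets passed in that direction. The second probe set, 1443485_at, gave 308, 177, 268 and 220 in old mice, against 451, 444, 383 and 353 in young mice, a log2 difference of -0.77 (SE 0.189, limma adjusted p = 0.208). In both of these every old mouse lay below every young mouse, as did 3.75% of all probe sets. The other 2 were dim and their ages overlapped. 1427528_a_at read 44.3, 49.0, 73.2 and 56.2 in old mice, against 22.2, 42.8, 109 and 75.3 in young mice (log2 difference 0.05), and 1452380_at read 34.3, 44.0, 43.2 and 35.2 in old mice, against 41.7, 54.4, 57.0 and 31.1 in young mice (log2 difference -0.20). The mean over the 4 probe sets gave a log2 difference of -0.47 with a limma adjusted p of 0.281. Which transcripts each probe set reads was not analysed here.

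Epha2 and Epha4 were the other A-type receptors without overlap, in opposite directions. Epha2, a receptor of epithelial cells at cell contacts, read 453, 521, 534 and 530 in old mice, against 380, 291, 307 and 364 in young mice. Old mouse 1 was the lowest of the old mice and still lay above every young mouse. The log2 difference was 0.61 (SE 0.111, limma adjusted p = 0.0682), and Epha2 has 1 probe set. Epha4, which binds ephrins of both types, read 168, 153, 143 and 176 in old mice, against 193, 241, 201 and 177 in young mice, where old mouse 6 and young mouse 8 nearly met. Its log2 difference was -0.34 (limma adjusted p = 0.237), and its other 4 probe sets were also negative, with overlapping ages.

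The remaining A-type receptors overlapped between the ages in their brightest probe sets. Epha3 averaged 414 in old mice and 551 in young mice (log2 difference -0.40), with old mouse 2 at 519 above young mouse 3 at 390. Epha1 averaged 291 in old mice and 314 in young mice, and Epha5 117 in old mice and 134 in young mice. The dimmest of the 4 probe sets of Epha5 did separate the ages, at 23.4, 55.2, 47.0 and 46.8 in old mice, against 81.1, 78.3, 67.1 and 68.0 in young mice (log2 difference -0.84, limma adjusted p = 0.310 over all probe sets), and its other 2 gave -0.24 and 0.39 with overlap. Epha6, Epha8 and Epha10 were dim, with means of 78.9, 31.5 and 15.0 in old mice and 72.5, 45.7 and 18.2 in young mice. In all, 7 of the 9 A-type receptors had a negative difference (77.8%, beside 51.0% of all genes), and 1 passed the test. Their median was -0.34, beside -0.0047 over all genes. The 7 include the dim Epha8 and Epha10, at -0.37 and -0.42 with SE of 0.539 and 0.477. The 4 B-type receptors had differences between -0.20 and 0.13. Ephb3, known for sorting cells along the intestinal crypt, averaged 377 ± 101 in old mice and 426 ± 48.9 in young mice, and Ephb6, which lacks kinase activity, 148 ± 18.2 in old mice and 135 ± 14.7 in young mice. Ephb4, the venous receptor of Efnb2, averaged 248 in old mice and 258 in young mice, and Ephb1 111 in old mice and 113 in young mice.

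Of the ephrins, the ligands of these receptors, Efna2 stood apart. Efna2 is a ligand anchored in the membrane by a lipid and takes part in the retinal map. It read 244, 240, 228 and 229 in old mice, against 154, 52.5, 137 and 130 in young mice. The old mice lay close together and above every young mouse, and young mouse 4 was far below the other young mice. The log2 difference was 1.10 (SE 0.324, limma adjusted p = 0.184). The second probe set of Efna2, 1417521_at, averaged 125 in old mice and 132 in young mice with overlap (log2 difference -0.09), so the probe sets of this gene disagree.

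The other 7 ephrins overlapped between the ages in their brightest probe sets. Efna1, the main ligand of Epha2, averaged 294 in old mice and 332 in young mice (log2 difference -0.16). Its second, dimmer probe set had no overlap, at 118, 104, 49.2 and 85.7 in old mice, against 143, 143, 127 and 126 in young mice (log2 difference -0.66, limma adjusted p = 0.411 over all probe sets). Efna3 averaged 47.3 ± 13.3 in old mice and 57.4 ± 5.41 in young mice (-0.32). Efna5 averaged 549 in old mice and 571 in young mice, and Efna4 135 in old mice and 145 in young mice. Efnb2, the arterial ephrin, averaged 604 ± 53.9 in old mice and 601 ± 103 in young mice, a log2 difference of 0.02 with a 95% interval of -0.31 to 0.35. Efnb1, whose human gene is mutated in craniofrontonasal syndrome, averaged 376 ± 65.3 in old mice and 390 ± 22.3 in young mice, and Efnb3 averaged 146 at both ages. The intervals of Efnb1 and Efnb3 were -0.37 to 0.23 and -0.20 to 0.23.

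**Figure D3:**
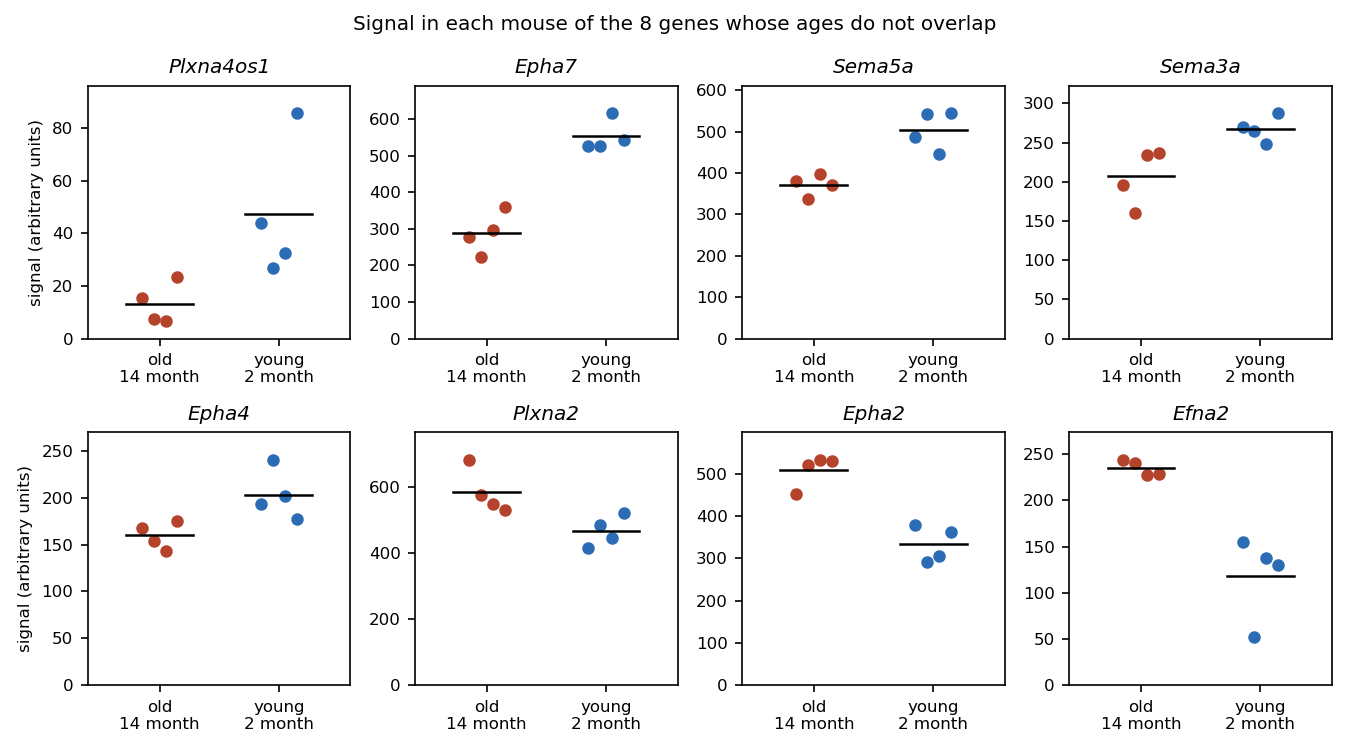
Signal in each mouse (points, arbitrary units, linear axis starting at 0) with the mean of 4 mice (line), for the 8 guidance genes whose old and young mice do not overlap in the brightest probe set. Epha7, Sema5a, Sema3a, Epha4 and the dim Plxna4os1 lie lower in old mice, and Plxna2, Epha2 and Efna2 lie higher; Epha7 passed the test over all genes.

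Among 20 semaphorins, 0 passed the test and 2, Sema5a and Sema3a, separated the ages (10%, beside 10.1% of all genes). Sema5a, a membrane-bound semaphorin with thrombospondin repeats, read 380, 337, 398 and 371 in old mice, against 487, 544, 445 and 545 in young mice. Its log2 difference was -0.44 (SE 0.094, limma adjusted p = 0.0990). A second probe set, 1434776_at, also had every old mouse below every young mouse, at means of 287 ± 35.3 in old mice and 382 ± 21.6 in young mice (log2 difference -0.42). Its other 2 probe sets were dim and overlapped, with log2 differences of 0.15 and -0.63.

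Sema3a, the secreted cue that repels sensory and sympathetic axons, read 196, 161, 234 and 237 in old mice, against 270, 264, 248 and 288 in young mice. Old mice 5 and 6 came near young mouse 7 without reaching it. The log2 difference was -0.39 (SE 0.134, limma adjusted p = 0.252), and its dimmer probe sets gave -0.57 and -0.14 with overlap. Sema3e, which binds Plxnd1 without a neuropilin and patterns blood vessels, averaged 1702 ± 202 in old mice and 2030 ± 244 in young mice (log2 difference -0.25), and the ages overlapped through old mouse 1 at 1989. Sema3c, needed to divide the outflow tract of the heart, averaged 2408 ± 60.2 in old mice and 2488 ± 136 in young mice, a log2 difference of -0.05 with an interval of -0.20 to 0.11. Sema3b, Sema3d, Sema3f and Sema3g had differences between -0.07 and 0.15.

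The membrane-bound semaphorins of class 4 were divided. Sema4g averaged 102 ± 20.8 in old mice and 145 ± 30.4 in young mice (log2 difference -0.50, limma adjusted p = 0.291). Sema4d, a semaphorin of lymphocytes that binds Plxnb1, averaged 639 ± 48.8 in old mice and 541 ± 59.5 in young mice (log2 difference 0.24, limma adjusted p = 0.324), and young mouse 7 at 615 lay above old mouse 5 at 606. Neither separated the ages. Sema4b had the widest spread of the class among old mice, with 425 in old mouse 1 and 950 in old mouse 2, and averaged 711 in old mice and 571 in young mice. Sema4a, Sema4c and Sema4f had differences of 0.07, -0.11 and -0.29. The second probe sets of Sema4a, Sema4b and Sema4f gave -0.07, -0.07 and 0.52, each opposite in sign to the brightest one. The dimmer probe sets of Sema4d gave 0.59 and -0.70 with overlap.

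Class 5, 6 and 7 semaphorins other than Sema5a overlapped between the ages. Sema6c averaged 306 ± 43.1 in old mice and 385 ± 67.4 in young mice (log2 difference -0.33), and its sign turned to 0.30 with the mean of its 3 probe sets. Sema6a, a ligand of Plxna2 and Plxna4, averaged 180 ± 30.1 in old mice and 169 ± 17.3 in young mice, and Sema6d 929 in old mice and 930 in young mice. Sema7a, a lipid-anchored semaphorin active in immune cells, averaged 290 ± 22.2 in old mice and 284 ± 32.5 in young mice, with an interval of -0.21 to 0.27. Sema5b averaged 104 ± 9.75 in old mice and 97.8 ± 10.4 in young mice. Sema6b was dim and scattered in both ages, between 25.1 and 93.0 in old mice and between 18.4 and 96.3 in young mice.

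Plexins, the signalling receptors of semaphorins, had positive differences in 7 of 9 genes, Plxna4os1 aside, and 0 passed the test. The share with a negative difference was 22.2%, beside 51.0% of all genes, in the brightest probe sets. Plxna2, a receptor of class 6 semaphorins, read 683, 574, 548 and 531 in old mice, against 415, 485, 446 and 520 in young mice. The ages did not overlap, though old mouse 6 and young mouse 8 were close to each other. The log2 difference was 0.32 (SE 0.110, limma adjusted p = 0.241). Its other probe sets gave 0.53, 0.40 and 0.27, of which the first separated the ages, at 446, 519, 485 and 405 in old mice, against 313, 364, 334 and 278 in young mice.

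Plxna4, a receptor of Sema3a and of class 6 semaphorins in sensory and sympathetic neurons, had a negative difference. It read 238, 265, 298 and 207 in old mice, against 339, 297, 352 and 313 in young mice, and old mouse 5 lay just above young mouse 4. The log2 difference was -0.38 (limma adjusted p = 0.226), and its dimmer probe set gave 0.11. Plxna4os1 read 15.6, 7.31, 6.56 and 23.4 in old mice, against 44.0, 26.9, 32.5 and 85.8 in young mice, a log2 difference of -1.89 (SE 0.512, limma adjusted p = 0.159). These signals lie far below 155, the median of all probe sets, and no detection calls were at hand to tell them from background.

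Plxna3, the partner of Nrp2 in the response to Sema3f, averaged 427 ± 31.6 in old mice and 327 ± 72.3 in young mice (log2 difference 0.41, limma adjusted p = 0.298), and young mouse 3 at 421 lay among the old mice. Plxnb2, a receptor of class 4 semaphorins, averaged 2422 ± 259 in old mice and 2561 ± 416 in young mice. Plxnb1 averaged 1103 in old mice and 1050 in young mice, and Plxnd1, the receptor of Sema3e, 605 in old mice and 534 in young mice. Plxna1, Plxnb3 and Plxnc1, the receptor of Sema7a, had log2 differences of 0.08, 0.26 and 0.14. The second probe sets of Plxnb3, Plxna3 and Plxnb1 gave -0.29, -0.02 and -0.02, the opposite sign to the brightest ones. The second of the 6 probe sets of Plxnc1 had no overlap, at 187, 202, 197 and 215 in old mice, against 103, 178, 149 and 139 in young mice (log2 difference 0.52, limma adjusted p = 0.317 over all probe sets), and the others were mixed in sign. The neuropilins, which bind class 3 semaphorins and vascular endothelial growth factors, were both on the negative side. Nrp2 averaged 1421 ± 236 in old mice and 1898 ± 404 in young mice (log2 difference -0.41, limma adjusted p = 0.373), and Nrp1 2953 ± 236 in old mice and 3191 ± 308 in young mice (-0.11, interval -0.34 to 0.12). For both, the old and young mice overlapped in these brightest probe sets, and all 4 probe sets of each gene had negative differences. The next 2 probe sets of Nrp1 in brightness had no overlap, with small log2 differences of -0.16 and -0.17, at means of 1568 in old mice and 1756 in young mice and of 1238 in old mice and 1396 in young mice (limma adjusted p = 0.524 and 0.501 over all probe sets), and its dimmest gave -0.39 with overlap. The other probe sets of Nrp2 gave -0.08, -0.35 and -0.20 with overlap.

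**Figure D4:**
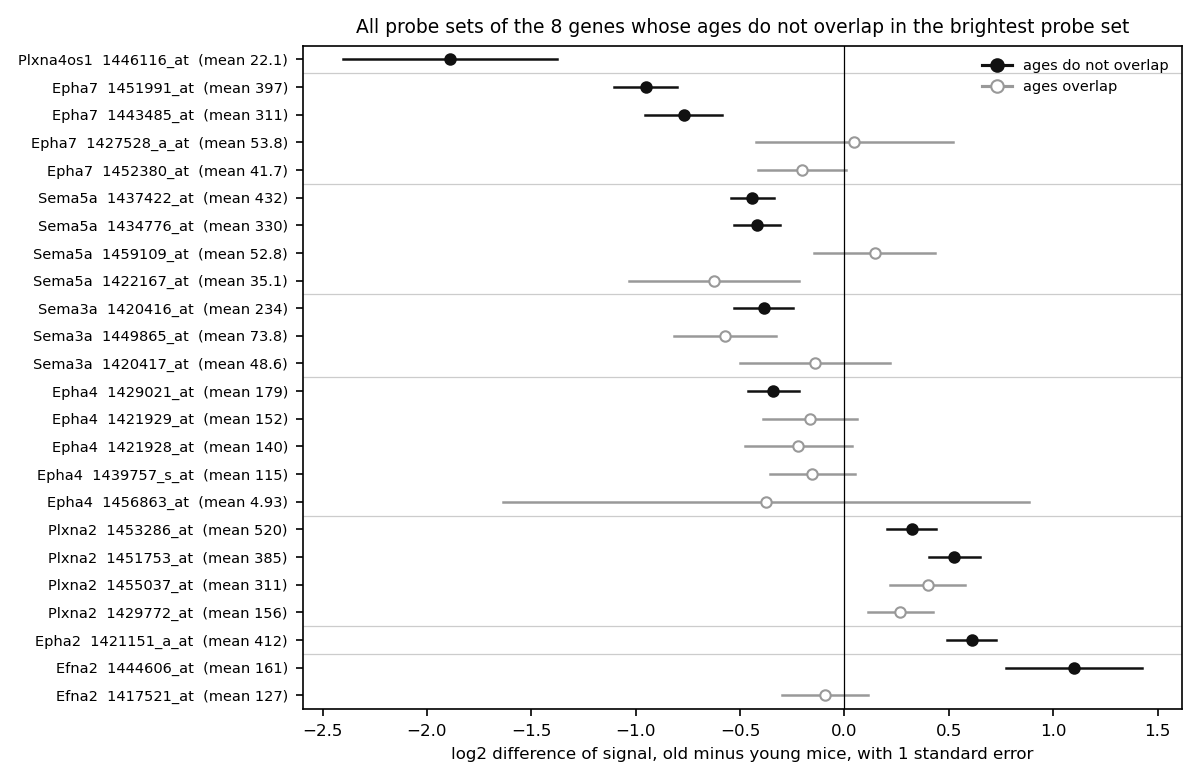
Log2 difference of signal, old minus young mice, with 1 standard error, for each probe set of the 8 genes whose ages do not overlap in the brightest one; numbers in brackets are mean signals over the 8 arrays. The 4 probe sets of Plxna2 all lie above 0, the dim ones of Epha7 lie at 0.05 and -0.20 and those of Sema5a at 0.15 and -0.63, and the second one of Efna2 lies at -0.09.

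Slits and Robos, the secreted cues and their receptors, had 0 of 7 genes past the test and none that separated the ages. Slit2 averaged 595 ± 38.7 in old mice and 553 ± 49.8 in young mice (log2 difference 0.11, interval -0.10 to 0.32). Slit3 averaged 226 ± 62.6 in old mice and 260 ± 23.5 in young mice, and Slit1 194 in old mice and 202 in young mice. Robo1 averaged 667 ± 49.7 in old mice and 655 ± 34.6 in young mice (interval -0.16 to 0.21), and Robo4, the Robo of endothelial cells, 412 ± 37.0 in old mice and 385 ± 31.3 in young mice (interval -0.12 to 0.32). Robo2 and Robo3 were dim, at means of 70.2 and 84.3 in old mice and 70.1 and 86.7 in young mice. The intervals of Slit2, Robo1 and Robo4 leave room for log2 differences of up to 0.32 in size.

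Netrins and their Unc5 receptors also had 0 of 8 past the test and no separation. All 4 netrins had negative differences, between -0.35 and -0.03, though Ntn1 was at 0.0046 with the mean of its probe sets. Of all genes, 51.0% were negative. Ntn1, the founding axon attractant, averaged 1385 ± 131 in old mice and 1543 ± 262 in young mice (log2 difference -0.14, interval -0.47 to 0.18), and Ntn4, a netrin of basement membranes, 1554 ± 160 in old mice and 1585 ± 42.7 in young mice. Ntn5 averaged 146 ± 33.2 in old mice and 172 ± 8.73 in young mice, with old mouse 6 at 177 among the young mice, and Ntn3 was dim. Unc5b, a netrin receptor of endothelial cells, averaged 358 ± 21.0 in old mice and 319 ± 61.2 in young mice, and Unc5a, a receptor of neurons, 91.1 ± 24.0 in old mice and 73.4 ± 19.3 in young mice. Unc5c averaged 659 in old mice and 749 in young mice, where young mouse 8 alone reached 1049, and Unc5d averaged 30.2 in old mice and 27.8 in young mice.

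The matched sides of a pathway can be set beside each other, in the brightest probe set of each gene. Epha2 (log2 difference 0.61) and its ligand Efna1 (-0.16, and -0.66 in its second probe set) differed in sign, and so did Plxna2 (0.32) and Plxna4 (-0.38), which share Sema6a (0.08) as a ligand. Sema3a (-0.39), Nrp1 (-0.11) and Plxna4 (-0.38, and 0.11 in its second probe set) were each on the negative side. The other plexins of the A type, Plxna1 (0.08), Plxna2 (0.32) and Plxna3 (0.41, and -0.02 in its second probe set), were on the positive side. Sema3e (-0.25) and its receptor Plxnd1 (0.22) were on opposite sides. The same 8 mice carry all of these values, none passed the test, and no difference between genes was tested.

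Other genes of these pathways were counted in the same way. Of 60 partners and effectors listed, 59 had a probe set, and 0 passed the test in either direction. The ages did not overlap for 7 of them (11.9%, beside 10.1% of all genes), 4 higher and 3 lower in old mice, so that this share is near the background, and the median log2 difference was -0.02. The 4 with the smallest p were Abl1, a kinase downstream of Robo receptors in flies (726 ± 54.9 in old mice and 954 ± 66.3 in young mice, log2 difference -0.39), Grip1, a scaffold that binds ephrin-B tails (184 in old mice and 332 in young mice, -0.85), Rgmb, a repulsive guidance molecule and co-receptor of bone morphogenetic proteins (946 in old mice and 1216 in young mice, -0.37), and Farp2, a Rac activator in the Sema3a response (270 in old mice and 227 in young mice, 0.24). Their limma adjusted p-values were 0.101, 0.118, 0.163 and 0.236.

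Spread between mice of an age was larger for dim members. For the 18 members below the median signal of all probe sets (155) the median SD within an age was 0.311 on the log2 scale, and 1 of them, Plxna4os1, separated the ages. For the 50 brighter members it was 0.195, and 7 separated the ages. Over all genes 10.1% had no overlap. That share was not computed by signal level, so these 2 counts have no matched background. Of the 44 members with more than 1 probe set, 12 had all probe sets of 1 sign, among them Plxna2, Epha4, Sema3a, Nrp1 and Nrp2. Over the 149 probe sets, the old mice all lay above the young mice in 5, where 4.05% of all probe sets did, and all below in 11, where 3.75% did. These 16 belong to 12 genes, and probe sets of a gene are not independent of each other.

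The tissue and its other cells were checked with marker lists. Airway markers were present at both ages, with Scgb1a1 of secretory cells at 28761 in old mice and 29859 in young mice, Foxj1 of ciliated cells at 2500 in old mice and 2594 in young mice, and Krt5 of basal cells at 2041 in old mice and 1645 in young mice. The sums given here add linear signals, so the brightest markers of a list weigh most. Over all genes, 5.02% lay higher in every old mouse and 5.11% lower. Of 15 measured nerve and Schwann cell markers 0 separated the ages and 9 had a negative difference (median log2 difference -0.09), with sums of 14633 to 15279 in old mice and 15872 to 16655 in young mice. Of 11 fibroblast markers, 6 lay lower in every old mouse and 1 passed the test, with sums of 76481 to 84122 in old mice and 96913 to 108589 in young mice. In all, 10 of them had a negative difference. The collagens Col1a1, Col1a2 and Col3a1 gave log2 differences of -1.58, -0.58 and -0.76. Dcn, Lum, Pdgfra and Dpt gave -0.07, 0.0067, -0.06 and -0.09 and overlapped between the ages. Of 9 smooth muscle markers, 4 lay lower in every old mouse (88280 to 100356 in old mice, 100287 to 114155 in young mice). Of 11 vascular endothelial markers, 1 lay higher and 2 lower (4631 to 5126 in old mice, 4764 to 5536 in young mice), and of 8 skeletal muscle markers 1 lay lower (2397 to 3707 in old mice, 3737 to 5381 in young mice). Of the skeletal muscle markers 5 had a negative difference, and the brightest, Tnni2, Tnnt3 and Ckm, gave -0.64, -1.09 and -0.46. Acta1, Mylpf and Myh2 went the other way, at 0.32, 0.29 and 0.28.

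Several lists had higher sums in every old mouse. Of 6 basal markers 4 lay higher in every old mouse (13507 to 17119 in old mice, 11065 to 12949 in young mice), as did 6 of 9 B and plasma cell markers, of which 1 passed the test (15521 to 28111 in old mice, 9558 to 11487 in young mice), and 5 of 8 macrophage and dendritic cell markers (10131 to 11730 in old mice, 8781 to 9530 in young mice). Also higher in every old mouse were 2 of 7 T cell markers (807 to 1256 in old mice, 531 to 677 in young mice), 2 of 9 general epithelial markers (48219 to 53883 in old mice, 45899 to 48024 in young mice) and 1 of 5 lymphatic endothelial markers (8936 to 9665 in old mice, 7381 to 8352 in young mice). The lymphatic one was Pdpn, the brightest of its list, with means of 5041 in old mice and 4232 in young mice. Lyve1, Flt4, Prox1 and Reln had positive differences with overlap of the ages. Over all genes, 5.02% lay higher in every old mouse. Of the 9 general epithelial markers 3 had a negative difference (median log2 difference 0.08). All 6 secretory markers were negative (median -0.10), and 0 separated the ages. No marker of any of these lists was listed at 0. That says little about presence, since the lowest signal of any probe set was 0.106. Sums of fibroblast, nerve and Schwann cell, and skeletal muscle markers were thus lower in every old mouse, the last by a narrow gap. That is the side of Epha7, Sema5a, Sema3a and Plxna4. The sums of smooth muscle markers leaned to that side, with a narrow overlap of the ages. Sums of basal epithelial, general epithelial, lymphatic and leukocyte markers were on the side of Epha2, Plxna2 and Sema4d. The part of these cells in those differences was not tested.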

How the data were processed

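Signals were measured in the distal trachea and carina of 8 mice, 1 Affymetrix array each, grouped by age from the labels. The authors deposited intensity values: for each probe set a linear signal, in arbitrary units. Their methods name robust multichip analysis in Partek, but every array has the same mean of 500.002 with 2% trimmed at each end, a form of single-array scaling, so how the values were normalized is not settled. Median signals were 149.6 to 160.5 per array, the lowest signal was 0.106 and no detection calls are given. Correlations between arrays were 0.951 to 0.958 within an age and 0.947 to 0.952 between the ages. The number of arrays limits the precision.

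64 of 45101 probe sets were controls and were left out. By the platform annotation, 34945 of the rest carry 1 symbol, 932 carry several and were not named, and 9160 carry none. A RefSeq gene table changed 0 symbols. The log2 of the signal was compared between 4 old and 4 young mice in R 4.3.3 by a two-sided test in limma 3.58.1 (lmFit, eBayes) with age as the only term, on 18193 genes or 45037 probe sets, with Benjamini-Hochberg adjustment over all of them. The scripts were tested on simulated data. The second factor of the authors' two-way analysis of variance is not named, so it was not used. Named were the members past the threshold, those without overlap of the ages, the 2 with the smallest p of each class and the brightest 3; values of further members describe their class. The genes with promoters and the motifs were chosen after the values were seen. Members and lists were chosen with earlier results of these data known. Alternatives covered the mice, the test, its prior, low signals, normalization and the choice of probe set. The mouse numbers are not shared between the ages and pair no samples.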

Additional observations from a re-analysis of the deposited data

Results flagged for a closer look

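The 33 guidance genes named by the rule were searched for a mouse far from the other 3 of its age, as the gap to the nearest mouse over the range of the 4, against Dixon's 95% critical value. Of 66 groups, 5 passed it, and chance gives about 1 in 20. For Epha2, old mouse 1 was the lowest at 453 and the other old mice lay at 521 to 534 (0.843). For Efna2, young mouse 4 was the lowest at 52.5 and the other young mice lay at 130 to 154 (0.842). For Sema4d, old mouse 6 was the highest at 711 and the other old mice lay at 606 to 621 (0.843). For Sema3e, young mouse 7 was the highest at 2393 and the others lay at 1883 to 1955 (0.842), and for Slit3, young mouse 3 was the highest at 295 and the others lay at 247 to 249 (0.938). The 5 values belong to 5 different mice.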

How the results depend on the processing

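Depth in the sense of reads does not apply to arrays: 4 mice per age and signals near background for the dim members limit these results. The count of guidance genes called lower in old mice (1, Epha7) was 0 to 1 when each mouse was left out in turn, 0 with an unmoderated test (adjusted p for Epha7 0.0764), quantile normalization (limma, 0.0516), median centring (limma, 0.0531) or the average over a gene's probe sets (limma, 0.281), and 2 (Epha7 and Sema5a) with a trended and robust prior or with probe sets above the median signal only. It stayed at 1 with array weights and with floors of 32 and 64. So it did with a block of mice 1 to 4 and mice 5 to 8 (limma adjusted p for Epha7 0.0476). Leaving out probe sets whose names end in _x_at or _s_at also kept it at 1, while those ending in _a_at stayed in. The count called higher (0) became 1 with the trended prior, the brighter probe sets and a floor of 32, each time Epha2, and 1, Efna2, by the rule of a fold above 2 at an unadjusted p under 0.05; that rule called Plxna4os1 and not Epha7 lower. Genes lower in every old mouse (5) numbered 5 to 8 with a mouse left out and 2 with the mean of all probe sets. Tested over all probe sets, 1451991_at of Epha7 (log2 difference -0.95) passed with the trended prior (limma adjusted p = 0.00731) and among the brighter probe sets (limma adjusted p = 0.0112). The median log2 difference of the guidance genes stayed between -0.0603 and -0.0098.

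Over all genes, 67 were called higher and 33 lower; these counts were 270 and 217 with the trended prior, 237 and 205 among the brighter probe sets, 143 and 109 with a floor of 32, 140 and 119 with a floor of 64, 157 and 81 with the fold rule, 40 and 31 without moderation, 46 and 11 with the mean of probe sets, and 8 to 24 and 3 to 24 with a mouse left out. Small differences turned sign when single mice were left out: Robo1 (-0.012 to 0.071 on the log2 scale), Efnb2 (-0.10 to 0.10), Sema7a (-0.013 to 0.107), Sema6a (-0.0056 to 0.16), Efnb1 (-0.165 to 0.015) and Plxnb2 (-0.140 to 0.028). Efna3 turned to 0.043 with a floor of 64. With the mean of all probe sets, Sema6c turned to 0.30, Ntn1 to 0.0046, Sema5b to -0.015, Sema3c to 0.037, Robo1 to -0.032, Sema7a to -0.19 and Efnb2 to -0.12. None of these genes passed the test under any setting. The causes were not tested.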
